A study of Mus musculus with 384 samples.

Results

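The expression of 10 genes, Cthrc1 and 9 genes of planar cell polarity (Vangl1, Vangl2, Prickle1, Celsr1, Ptk7, Ror2, Fzd2, Fzd7 and Wnt5a), was described across 4 mouse pluripotent stem cell lines. These genes are 10 of the 31617 genes in the count table. They were taken by symbol, and Cthrc1 was selected on its level in these data because it was close to absent in the line AF32, so its levels are a description without a test. 96 cells of each line were sorted singly into wells and profiled by Smart-seq2, a full-length mRNA method without molecular identifiers. 5ar1 and 5ar2 are formative stem (FS) cell lines, named for the formative phase of pluripotency that precedes gastrulation, and grew in AloXR (A3XR in the labels), which holds low activin A, the tankyrase inhibitor XAV939 and BMS493, an inverse agonist of retinoic acid receptors. AFX6 and AF32 are epiblast-derived stem cell (EpiSC) lines, which represent primed pluripotency. AFX6 grew in AFX, with activin A, Fgf2 and XAV939, and AF32 grew in AF, with activin A and Fgf2 alone. No line is described as genetically modified, and the strain of each line is not given in the sources used here. Each EpiSC medium is represented by 1 line, so line and medium cannot be told apart.

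Planar cell polarity aligns cells within the plane of an epithelium, and in the mouse embryo it is needed for convergent extension during gastrulation and for neural tube closure. Vangl, Celsr and Frizzled proteins sit in complexes on opposite sides of a cell junction, with Prickle and Dishevelled bound on the inside. Wnt5a signals through Ror2 and Frizzled receptors into this branch without β-catenin. Cthrc1 is a secreted glycoprotein, known from fibroblasts of injured arteries, that can bind Wnts, Frizzled receptors and Ror2 and favour the polarity branch.

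Levels are counts per 1000000 counts (CPM), either of a single cell or of the counts summed over the kept cells of a line. A cell was kept with at least 3000000 counts, which left 90 cells of 5ar1, 90 of 5ar2, 66 of AFX6 and 80 of AF32. Kept cells had 3022666 to 6686007 counts, and the median number of detected genes was 11371 and 11567 in 5ar1 and 5ar2 but 10328 and 10330 in AFX6 and AF32. Pou5f1, the central pluripotency factor, was at 490 to 644 CPM in the 4 lines, and 6 naive pluripotency genes summed to 3.17 to 6.11 CPM. The primitive streak and endoderm list summed to 62.3, 52.5, 7.88 and 55.5 CPM in 5ar1, 5ar2, AFX6 and AF32. Different genes made up these sums. Eomes was at 61.3, 48.2, 6.62 and 5.84 CPM in the same order. T was at 0.144, 0.179, 0.382 and 39.1 CPM, nearly all of the AF32 level coming from a single cell. The neural list summed to 35.2 to 382 CPM, with Tubb3 at 335, 130, 12.2 and 68.7 CPM. The extraembryonic list summed to 3.77 to 12.2 CPM. The 10 measured fibroblast and mesenchyme genes summed to 94.5, 118, 146 and 170 CPM, and 2 to 4 of them reached 5 CPM in a line. Most of this sum was Fbln1, an extracellular matrix gene, at 75.0, 65.2, 116 and 145 CPM and past 5 CPM in 72.7% to 83.8% of cells. Col1a1 was at 0.784 to 27.7 CPM, Col1a2 at 1.79 to 10.9 CPM, Pdgfrb at 2.95 to 10.8 CPM and Dcn at 1.71 to 8.57 CPM, while Col3a1, Postn, Pdgfra, Thy1 and Twist1 were at 0 to 2.35 CPM. Fibroblasts are a known source of Cthrc1, and the part of such genes in its levels was not tested.

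Cthrc1 (ENSMUSG00000054196, GRCm38 chromosome 15, 39076932 to 39087121, plus strand) was well expressed in 3 lines and close to absent from kept cells of AF32. Its line level was 42.1 CPM in 5ar1, 21.7 CPM in 5ar2, 50.2 CPM in AFX6 and 0.141 CPM in AF32. The AF32 level rests on 50 counts, against 18136 in 5ar1, 9426 in 5ar2 and 16681 in AFX6. The folds of summed counts were 357 (95% exact conditional interval 271 to 481, counting error only) for AFX6 over AF32 and 154 (117 to 208) for 5ar2 over AF32. The gap between the FS lines was much smaller, with 5ar1 1.94-fold above 5ar2, and AFX6 lay above both.

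Within the 3 expressing lines, Cthrc1 was found in most cells and was low or absent in the rest. At least 5 CPM was found in 69 of 90 cells of 5ar1 (76.7%, exact 95% interval 66.6 to 84.9), 58 of 90 cells of 5ar2 (64.4%, 53.7 to 74.3) and 48 of 66 cells of AFX6 (72.7%, 60.4 to 83.0). The medians over all kept cells were 27.2, 17.1 and 39.4 CPM, the highest cells reached 164, 119 and 197 CPM, and the lowest were at 0. No read of Cthrc1 was counted in 13 cells of 5ar1, 21 of 5ar2 and 11 of AFX6. The median gene averaging at least 5 CPM over the lines passed 5 CPM in 75.6% of cells in each FS line and 57.6% in AFX6. Cells without Cthrc1 are therefore not read as a separate kind of cell. Differences between the shares of these lines were not tested.

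In kept AF32 cells, 55 of 80 had no count of Cthrc1, and 1 cell (1.25%, 0.0316 to 6.77) passed 5 CPM. That cell had 5.52 CPM and held 22 of the 50 counts, and the next cell was at 0.595 CPM. The source of these few counts was not tested.

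The AF32 cells under the depth limit looked different. The 16 cells below 3000000 counts held 690 counts of Cthrc1, or 24.0 CPM, and all but 7 of these counts came from a pair of cells. AF32 cell 31 had 483 counts in 1856517 (260 CPM), and AF32 cell 79 had 200 counts in 2723377 (73.4 CPM). Both lay above the median of positive cells in each expressing line, which was 47.3 CPM in 5ar1, 26.5 CPM in 5ar2 and 58.1 CPM in AFX6. The other 14 cells had at most 0.792 CPM. Cells 31 and 79 had few detected genes (7763 and 8401). Ddx3y, Eif2s3y, Kdm5d and Uty, on the Y chromosome, came to 481 and 272 CPM together in these cells and to 0.547 CPM over the kept cells of AFX6. The AFX6 value was 0.278% of the mean of 5ar1, 5ar2 and AF32. Whether cells 31 and 79 held material of more than 1 line was not tested. Pou5f1 was at 8.62 and 239 CPM in cells 31 and 79, and Nanog at 119 and 11.4 CPM. The other AF32 cells under the limit spanned 2.47 to 865 CPM of Pou5f1 and 0.975 to 604 CPM of Nanog. The source of Cthrc1 in cells 31 and 79 was not tested. With a depth limit of 2000000 counts, which lets in cell 79, AFX6 was 72.0-fold above AF32, and with a limit of 1000000, an alternative chosen after the data were seen that also lets in cell 31, it was 24.4-fold above. The size of the fold thus depends on whether these cells are counted.

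**Figure D1:**
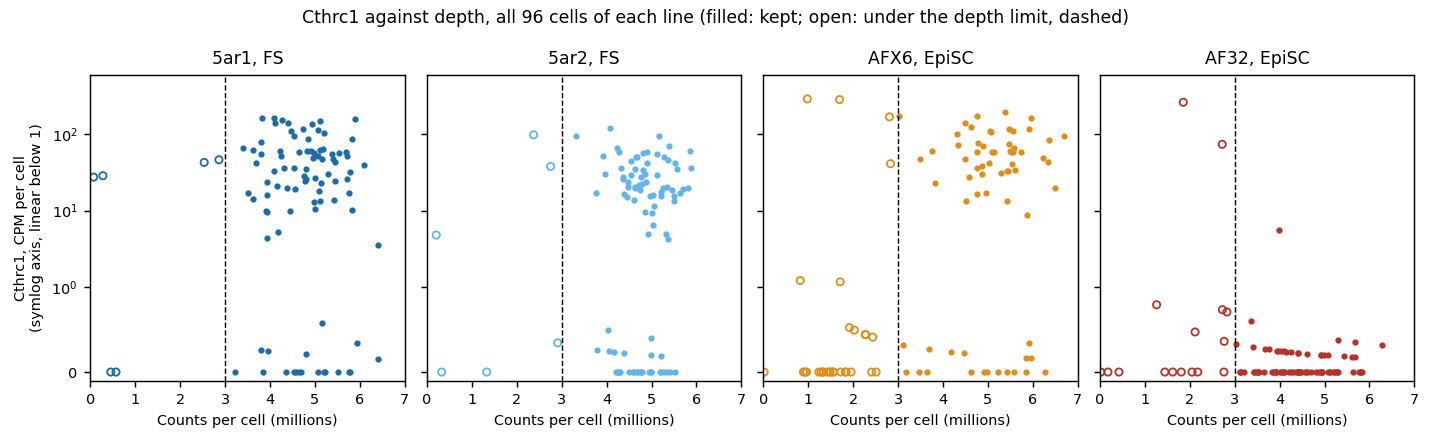
Cthrc1 CPM (vertical, symlog axis) against total counts per cell (horizontal) for all 96 cells of each line, with filled points for kept cells, open points for cells under the limit and a dashed line at the limit. AF32 kept cells lie near 0 except 1 at 5.52 CPM, and the open points at 260 and 73.4 CPM are AF32 cells 31 and 79.

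The 9 polarity genes were present in AF32, and none showed the same drop in kept cells. Compared per length, as CPM per kb of annotated exon, Ptk7 was the highest of them in every line (28.8 to 34.8 CPM per kb), followed by Prickle1 and Fzd2 and then Fzd7, Vangl2 and Vangl1, with Vangl2 above Fzd7 in AF32. Celsr1 and Ror2 were low (0.611 to 1.41 CPM per kb), and Wnt5a was the lowest (at most 0.364). Cthrc1, at 13.6 to 31.5 CPM per kb in the 3 lines that express it, stood at a level like that of Prickle1, Fzd2 and Ptk7 there.

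Vangl1 and Vangl2 encode the 4-pass membrane proteins of the Vangl-Prickle side of the junction. Vangl1 (chromosome 3, 102153583 to 102204693) was at 21.6 CPM in 5ar1, 16.6 CPM in 5ar2, 24.6 CPM in AFX6 and 19.1 CPM in AF32. Vangl2 (chromosome 1, 172000960 to 172028444) was at 46.8, 27.8, 44.8 and 36.5 CPM in the same order. For both genes the AF32 level lay between those of the FS lines, as did the AFX6 level for Vangl2. The share of positive cells was higher in both FS lines, as it was for 61.0% of all genes averaging at least 5 CPM over the lines. Vangl1 passed 5 CPM in 52.2% and 58.9% of FS cells (5ar1, 5ar2) against 43.9% in AFX6 and 33.8% in AF32, and Vangl2 in 77.8% and 72.2% against 56.1% and 63.8%. Among cells past 5 CPM, the median of Vangl1 was 23.8 and 22.9 CPM in the FS lines and 49.7 and 45.3 CPM in AFX6 and AF32. These medians cover different shares of cells and were not set against all genes, so nothing particular to Vangl1 is read from them.

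Prickle1 (chromosome 15, 93499114 to 93595891) encodes the cytoplasmic partner of Vangl. It was at 73.4 CPM in 5ar1, 76.5 CPM in 5ar2, 92.0 CPM in AFX6 and 43.0 CPM in AF32. The FS lines lay close together, AFX6 above them and AF32 below, and AFX6 was 2.14-fold above AF32 (2.10 to 2.18). The median cell had 50.0, 58.5, 60.9 and 2.43 CPM in the same order, and 39 of 80 AF32 cells (48.8%, 37.4 to 60.2) passed 5 CPM. The AF32 cells under the depth limit went the other way, with 170 CPM over 16 cells, of which AF32 cell 34 had 1344 CPM.

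Celsr1 (chromosome 15, 85898929 to 86033777), an atypical cadherin that links the complexes across the junction, was low in all lines. It was at 8.95 CPM in 5ar1, 11.7 CPM in 5ar2, 11.1 CPM in AFX6 and 15.5 CPM in AF32. The AFX6 level rested on few cells, since its highest cell (145 CPM) held 23.4% of the counts and the median cell had 0.302 CPM. AFX6 had Celsr1 past 5 CPM in 31.8% of cells, and the other lines in 46.7% to 58.9%.

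Ptk7 (chromosome 17, 46564471 to 46629504), a kinase-dead receptor needed for polarity in the mouse embryo, was the most even member. Line levels were 161 CPM in 5ar1, 155 CPM in 5ar2, 187 CPM in AFX6 and 169 CPM in AF32, and it passed 5 CPM in 86.4% to 98.9% of cells. Ptk7 was the one member whose level was lower in both FS lines than in both EpiSC lines, by small steps.

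Ror2 and Wnt5a, the receptor and ligand, were found in few cells of any line. Ror2 (chromosome 13, 53109312 to 53286124) was at 2.91 CPM in 5ar1, 5.57 CPM in 5ar2, 3.21 CPM in AFX6 and 2.59 CPM in AF32, from 9, 16, 6 and 3 cells past 5 CPM. The 3 positive AF32 cells had up to 80.3 CPM, and 99.6% of the AF32 counts came from 5 cells. Wnt5a (chromosome 14, 28504750 to 28527448) was at 0.859 CPM in 5ar1, 0.720 CPM in 5ar2 and 2.85 CPM in AF32, from 3, 4 and 4 cells past 5 CPM. In AFX6 it had 1 count over 66 cells, and 0 cells passed 5 CPM (exact 95% interval 0 to 5.44%). One AF32 cell, at 124 CPM, held 62.9% of the AF32 counts of Wnt5a. Of the 11 kept cells past 5 CPM for Wnt5a, 10 also passed it for Fzd2, 3 for Ror2 and 0 for T, the primitive streak factor. Over all kept cells of 5ar1, 5ar2 and AF32, Fzd2 was past 5 CPM in 88.8% to 90.0% and T in 1 or 2 cells of a line, so that little can be read from these numbers. The exons of Wnt5a share 358 bases with the antisense gene Gm2670, and the strand setting of the counting is not stated, so a part of these few counts could belong to either.

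Fzd2 and Fzd7 encode closely related Frizzled receptors that serve both Wnt branches, and they ran in opposite directions between the EpiSC lines. Fzd2 (chromosome 11, 102604396 to 102608058) was at 71.2 CPM in 5ar1, 63.8 CPM in 5ar2, 40.0 CPM in AFX6 and 90.8 CPM in AF32. AF32 was 2.27-fold above AFX6, with the FS lines between them. Fzd7 (chromosome 1, 59482424 to 59486955) was at 47.8, 38.9, 32.1 and 19.6 CPM, highest in the FS lines and lowest in AF32. The median AF32 cell had 73.5 CPM of Fzd2 and 3.76 CPM of Fzd7, and the median 5ar1 cell had 54.8 and 42.2 CPM. Fzd7 was the one member whose level was higher in both FS lines than in both EpiSC lines, and it passed 5 CPM in 88.9% and 85.6% of FS cells against 59.1% in AFX6 and 47.5% in AF32.

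**Figure D2:**
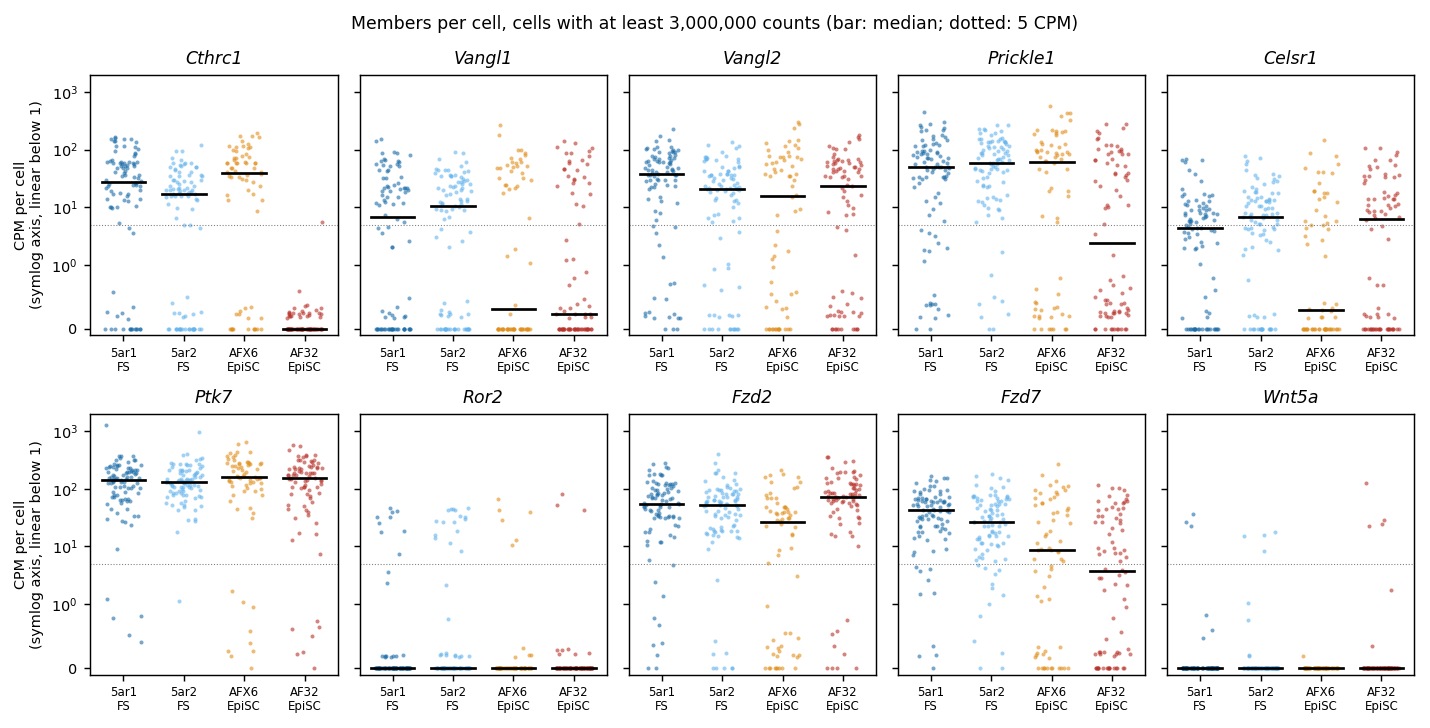
CPM per cell (vertical, symlog axis) of the 10 genes in kept cells of each line (horizontal), with a point per cell, a bar at the median and a dotted line at 5 CPM. Kept AF32 cells lack Cthrc1 but hold every other member in some cells, and Fzd2 and Fzd7 have medians of 73.5 and 3.76 CPM there.

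Where AFX6 and AF32 were set against each other, 8 members reached 5 CPM in either line. Of these, Cthrc1, which was chosen for it, and Prickle1 were at least 2-fold higher in AFX6, and Fzd2 at least 2-fold higher in AF32. Over all 11260 genes with 5 CPM in either line, 8.40% were at least 2-fold higher in AFX6 and 13.3% in AF32. With 1 line per medium there is no test, and the exact intervals cover counting error only.

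Levels of some members were also split by chromosome-wide expression, in groups of as few as 7 cells of a line and without a test. The mean relative expression of 613 chromosome 11 genes, set against the median autosome of each cell, had a median of 1.29 in AF32 and 0.898 to 0.913 in the other lines, and 66 of 80 AF32 cells were above 1.2. Fzd2, on chromosome 11, was at 98.7 CPM in those 66 cells and at 52.4 CPM in the other 14. In the other lines it did not follow in the same way, at 68.1 CPM in the 11 cells of 5ar1 above 1.2 against 71.7 CPM in the rest, and at 43.8 against 39.4 CPM in AFX6. Ptk7, on chromosome 17, was lower in the 7 AFX6 cells with that chromosome above 1.2, at 120 against 194 CPM. For chromosome 15, which carries Cthrc1, Prickle1 and Celsr1, the median ratio was 0.954 and 1.15 in 5ar1 and 5ar2, and 0.999 and 0.928 in AFX6 and AF32, with 0, 12, 8 and 0 cells above 1.2. In AFX6, Celsr1 was at 25.2 CPM in the 8 cells above 1.2 and 9.10 CPM in the rest, Prickle1 at 141 and 85.1 CPM, and Cthrc1 at 50.9 and 50.1 CPM. In 5ar2, the 12 such cells had 31.7 CPM of Cthrc1 against 20.1 CPM in the rest, and 52.3 against 80.3 CPM of Prickle1. The part of chromosome-wide expression in the line differences was not tested.

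The FS lines were compared with the EpiSC lines, with lines as replicates. Both FS lines grew in AloXR and neither EpiSC line did, so formative or primed state and medium cannot be told apart. None of the 9 polarity genes passed the test, and no test is given for Cthrc1 because AF32, on which it was chosen, is one of the lines compared. In edgeR, with counts summed per line, 0 of the 9 and 0 of all 22606 genes tested (0%) passed an adjusted p under 0.05 with an absolute log2 fold change over 1.4, while 3636 genes (16.1%) had an unadjusted p under 0.05, none of them a member. DESeq2 on the same sums called 8.12% of the genes it adjusted, 1808 in all, and 0 of the 9. In simulated lines where every gene had the common dispersion of these data (0.653), edgeR recovered 0 of 200 changed genes. With a dispersion of 0.05 for every gene it recovered 192 of 200. Genes were not simulated at their own dispersion, so the power for the members is not known. The count of 0 is therefore not read as absence of change. An exact permutation test of 2 lines against 2 cannot go below p = 0.333.

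The log2 fold changes of FS lines over EpiSC lines were above 0 for 4 of the 9 and below 0 for 5, with a median of -0.14 against -0.01 over all genes tested. Fzd7 had the highest, 0.73 (SE 0.34, 95% interval -0.19 to 1.66, edgeR adjusted p = 0.41). Ptk7 had the narrowest interval, -0.18 (SE 0.17, -0.63 to 0.27, adjusted p = 0.715 in edgeR). Vangl1 was at -0.20 (-1.03 to 0.62), Vangl2 at -0.14 (-1.05 to 0.78), Celsr1 at -0.36 (-1.33 to 0.60), Prickle1 at 0.14 (-1.02 to 1.29), Fzd2 at 0.05 (-1.10 to 1.2) and Ror2 at 0.54 (-1.06 to 2.14). These intervals include differences of 1.5-fold or more for each of them in at least 1 direction, so equal expression was not shown. For Wnt5a the estimate was -0.84 with an SE of 2.35. For Cthrc1 the fitted value of 0.31, given as a description, joins EpiSC levels of 50.2 and 0.141 CPM. Leaving out 1 line in turn reversed the sign for Vangl1, Vangl2, Prickle1, Ror2, Fzd2 and Wnt5a, and kept it for Celsr1, Ptk7 and Fzd7.

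**Figure D3:**
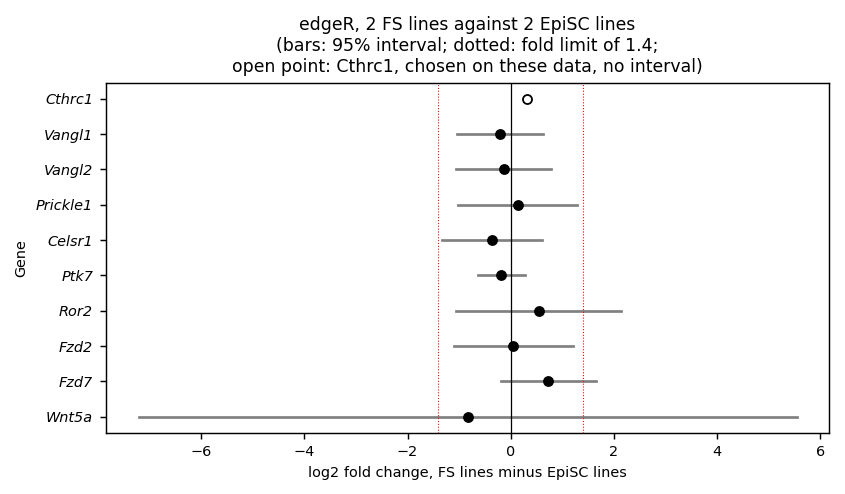
The log2 fold change of FS lines over EpiSC lines from edgeR (horizontal) for the 10 genes, with 95% intervals as bars for the 9 polarity genes, an open point without interval for Cthrc1 and dotted lines at the fold limit of 1.4. Every interval includes 0, and that of Wnt5a is the widest, with an SE of 2.35.

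By order alone, 7 of the 9 polarity genes had a mean over the lines of at least 5 CPM. The level of 1 of them (Fzd7) was higher in both FS lines than in both EpiSC lines, where 26.7% of all 10597 such genes were, and that of 1 (Ptk7) was lower in both, where 27.6% were. The share of cells past 5 CPM was higher in both FS lines for 6 of the 7, namely Vangl1, Vangl2, Prickle1, Ptk7, Fzd2 and Fzd7. This was also the case for 61.0% of all such genes, so nothing particular to the members is read from it. Ror2, under the level limit, had its highest shares in the FS lines too (10.0% and 17.8%, against 9.09% and 3.75%).

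**Figure D4:**
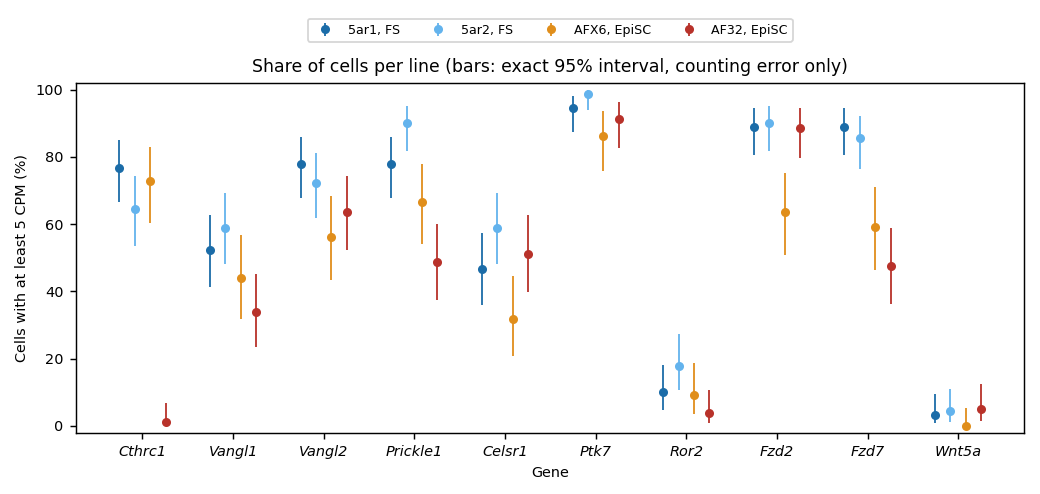
Share of kept cells with at least 5 CPM (vertical, percent) for the 10 genes in each line, with exact 95% intervals that cover counting error only. Fzd7 and Prickle1 are found in more FS cells than EpiSCs, Fzd2 is lowest in AFX6 at 63.6%, and Cthrc1 is at 1.25% in AF32.

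The spread between cells, as the SD of log2(CPM + 1), was lower in both FS lines for 7 of these 7 genes and for 69.4% of all genes with that mean. For Ptk7 the SD was 1.79 and 1.12 in 5ar1 and 5ar2, against 2.54 and 2.24 in AFX6 and AF32. In the same order it was, for Fzd7, 1.67, 1.78, 2.57 and 2.40, and, for Prickle1, 2.46, 2.09, 3.18 and 2.93. The SD of Cthrc1 in AF32 was 0.333, where nearly all cells were near 0, and 2.33 to 2.69 elsewhere. Genes per cell were fewer in the EpiSC lines, and the part of this in the spread was not tested.

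The number of members found in the same cell was counted, without a number expected from the share of each gene alone. Counting Vangl1, Vangl2, Prickle1, Celsr1, Ptk7, Fzd2 and Fzd7, the median cell had 6 of 7 past 5 CPM in 5ar1 and in 5ar2 and 4 of 7 in AFX6 and in AF32. Genes at large were also past 5 CPM in more FS cells than EpiSCs (medians of 75.6% in each FS line, 57.6% in AFX6 and 61.3% in AF32), and the members were not separated from this. All 7 passed in 8 and 19 of the 90 cells of each FS line, in 3 of 66 AFX6 cells and in 2 of 80 AF32 cells. In cells with and without Cthrc1 the medians of this number were 6 against 5 in 5ar1, 5 against 6 in 5ar2 and 4 against 4 in AFX6. Across cells of a line, Spearman correlations of Cthrc1 with Vangl1, Vangl2, Prickle1, Celsr1, Ptk7, Fzd2 and Fzd7 lay between -0.271 and 0.166 in 5ar1, 5ar2 and AFX6. As weak correlations in sparse counts of cells of the same line, they are given as a description only.

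5ar1 and 5ar2 shared a medium and differed least in Ptk7 (5ar2 at 0.963 of 5ar1), Prickle1 (1.04) and Fzd2 (0.895). They differed most in Cthrc1 (0.515), Vangl2 (0.594) and Ror2 (1.91), in opposite directions. None of the 10 reached 2-fold, where 6.00% of the 10744 genes with 5 CPM in either line were at least 2-fold apart. The 5ar2 cells under the depth limit had more Vangl2 than the kept ones, at 110 CPM over 6 cells.

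The wider polarity machinery was taken from lists. Of 16 core genes, 14 reached 5 CPM in AFX6 or AF32. 4 of the 14 were at least 2-fold higher in AFX6, namely Prickle1, Dvl1, Dvl2 and Scrib, and 3 were at least 2-fold higher in AF32, namely Prickle3, Celsr3 and Ankrd6. Of all genes with 5 CPM in either line, 8.40% and 13.3% were so. Dvl2, a Dishevelled adaptor that passes on Frizzled signals, was at 69.0 CPM in 5ar1, 55.6 CPM in 5ar2, 79.2 CPM in AFX6 and 29.9 CPM in AF32, but its exons overlap neighbouring genes such as Acadvl by 1240 bases. Dvl1 was at 10.3, 7.84, 15.9 and 3.16 CPM, and Dvl3 at 30.1, 23.3, 14.5 and 19.7 CPM. Scrib, a scaffold of basolateral polarity that also binds Vangl2, was at 21.3, 18.4, 22.8 and 10.3 CPM. Against EpiSCs, edgeR and DESeq2 called 0 of the 15 core genes tested in either direction. In edgeR 1 of them, Fzd6, had an unadjusted p under 0.05, against 16.1% of all genes.

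Among the ligands and receptors of the Wnt5a-Ror arm, 8 genes in all, no other ligand was abundant. Wnt5b was at 3.29 to 5.45 CPM in the 4 lines, Wnt4 at 0 to 1.63 CPM and Wnt11 at 0.012 to 4.68 CPM, with 9 AF32 cells past 5 CPM for Wnt11. Ror1 was at 6.78 CPM in 5ar1, 9.19 CPM in 5ar2, 1.34 CPM in AFX6 and 6.25 CPM in AF32, and per kb of exon it was above Ror2 in each line except AFX6 (0.233 against 0.757 CPM per kb). Ryk, another Wnt receptor, was at 11.0 to 18.6 CPM. In this list edgeR and DESeq2 called 0 of 8 genes, with 0 at an unadjusted p under 0.05.

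Of the 10 Frizzleds, Fzd2 and Fzd7 had the most CPM per kb in each line, except that Fzd10 (6.04 CPM per kb) exceeded Fzd7 (4.33) in AF32. Fzd10 was at 3.86 CPM in 5ar1, 0.287 CPM in 5ar2, 1.45 CPM in AFX6 and 19.6 CPM in AF32. Fzd4, at 2.76, 1.33, 4.60 and 0.0225 CPM, ran the other way between AFX6 and AF32. Fzd5 was at 4.83, 2.09, 6.05 and 0.798 CPM. edgeR and DESeq2 called 0 of the 10, and 1, Fzd6, had an unadjusted p under 0.05 in edgeR, against 16.1% of all genes. Fzd6 was at 4.93 and 4.83 CPM in 5ar1 and 5ar2 and at 13.9 and 10.8 CPM in AFX6 and AF32. Its log2 fold change was -1.351 in edgeR (adjusted p = 0.2105) and -1.375 in DESeq2 (adjusted p = 0.001048), short of the fold limit of 1.4.

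**Figure D5:**
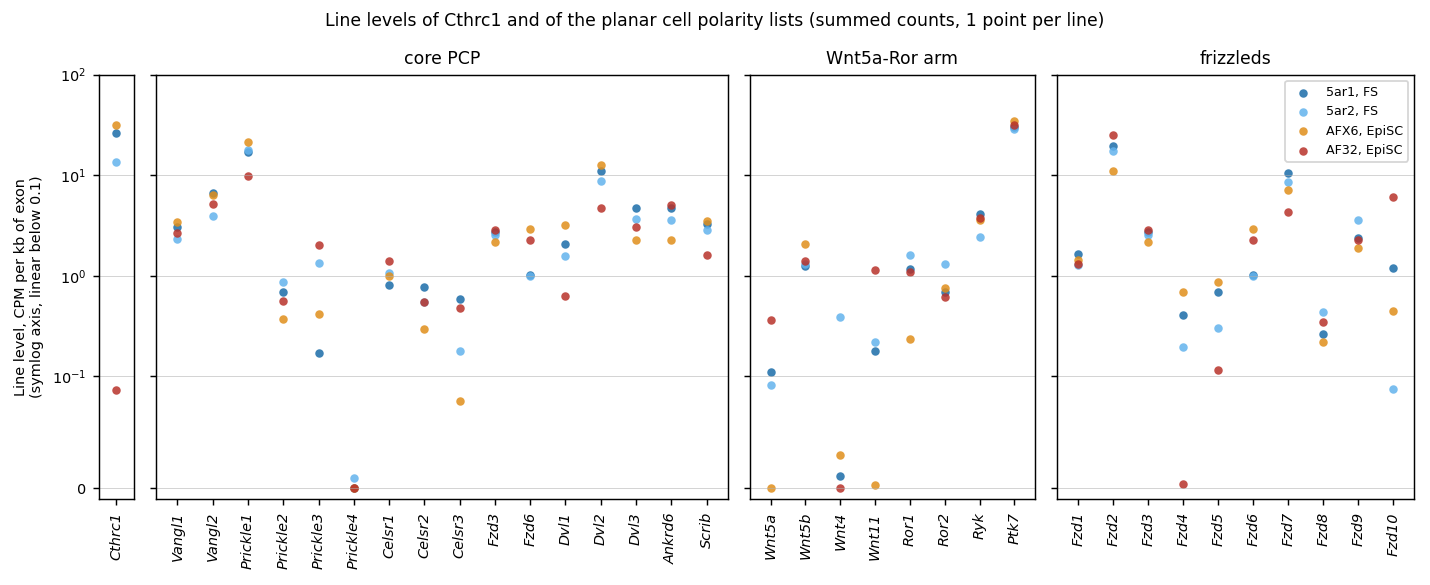
Line level in CPM per kb of exon (vertical, symlog axis) of Cthrc1 and of the genes of 3 polarity lists, with a point per line. Ptk7 is near 30 in all lines, while Cthrc1 falls from 31.5 in AFX6 to 0.0882 in AF32 and Fzd10 rises from 0.447 to 6.04.

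Downstream, the 18 effectors include the formin Daam1, the small GTPases Rhoa, Rac1 and Cdc42, Jun kinases and glypican 4. Of the 16 with a mean of 5 CPM, 6 had lower levels in both FS lines (Daam1, Mapk8, Mapk9, Intu, Smurf2 and Sec24b) and 0 had higher levels, where 27.6% of all such genes were lower and 26.7% higher. Daam1 was at 8.57 and 7.79 CPM in 5ar1 and 5ar2 and at 16.0 and 16.5 CPM in AFX6 and AF32. edgeR called 0 of the 18, with 3 at an unadjusted p under 0.05 (16.1% of all genes). DESeq2 called 1 (8.12% of all genes), Dact1, lower in FS lines at 0.363 to 2.13 CPM over the 4 lines. Gpc4, a proteoglycan that binds Wnts, was at 55.2, 127, 81.9 and 33.9 CPM in 5ar1, 5ar2, AFX6 and AF32.

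The canonical branch of Wnt signalling acts through β-catenin. Of 10 target genes of it, 5 reached 5 CPM in AFX6 or AF32, and 3 of these 5 were at least 2-fold higher in AF32 (Tcf7, T and Nkd1) and 0 at least 2-fold higher in AFX6, against 13.3% and 8.40% of all genes at that level. For T, 1 cell held 99.1% of the AF32 counts. Below that level, Notum, a secreted Wnt inhibitor, was at 4.29 CPM in AF32 and 0.463 CPM in AFX6. Sp5 had 80 counts in AF32 and 0 in AFX6. Axin2 did not follow, at 2.54 CPM in AF32 and 2.68 CPM in AFX6. Rnf43 was at 2.03 and 1.1 CPM in the same order, and Lgr5 had 1 count in each of these lines. Znrf3, above that level, was at 35.5 CPM in AF32 and 21.5 CPM in AFX6, short of 2-fold. Nkd1, an antagonist induced by the pathway, was at 9.19, 7.24, 10.2 and 46.4 CPM in 5ar1, 5ar2, AFX6 and AF32. Lef1 was at 45.5 and 33.5 CPM in the FS lines and 13.4 and 14.2 CPM in AFX6 and AF32. edgeR called 0 of the 9 tested, with 3 at an unadjusted p under 0.05 (16.1% of all genes). DESeq2 called 3 (8.12% of all genes), with Lef1 and Lgr5 higher and T lower in FS lines. Lgr5 was close to absent in all lines, at 0.137 CPM in 5ar1 and 0.4875 CPM in 5ar2.

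Genes with a profile over the 4 lines most like that of Cthrc1 were sought among 10596 genes averaging 5 CPM or more over the lines, by the Euclidean distance of centred log2(CPM + 0.1) values. The nearest 10 were Pvt1, Gsap, Gatm, Magef1, P4htm, Gpx7, Slc38a4, Gusb, A230050P20Rik and Spp1, at distances of 0.721 to 1.71. Each was under 0.5 CPM in AF32, for example Pvt1 at 12.9, 11.2, 17.7 and 0.0337 CPM and Gusb, a lysosomal glucuronidase, at 57.6, 33.8, 20.3 and 0.242 CPM. They lie on 6 chromosomes, with Pvt1 and Slc38a4 on chromosome 15 like Cthrc1. No member was among them, the nearest being Fzd7 (rank 485) and Prickle1 (rank 520), and the median distance was 6.19 for 7 members against 6.43 for all genes compared. Cthrc1 was chosen for its level in AF32, so these distances largely restate which genes are low there. Of 11 genes with at least 5 CPM in each of the other 3 lines and under 0.2 CPM in kept AF32 cells, 2 were past 5 CPM with more than 3 counts in any of the 16 AF32 cells under the depth limit, and Cthrc1 was one of them.

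Likeness over cells was weak. The 10 genes with the highest minimum Spearman correlation with Cthrc1 over 5ar1, 5ar2 and AFX6 were Mcfd2, Sec22a, Gm8355, Hltf, Tdgf1, Hspd1-ps3, Hspa8, Tdgf1-ps1, Slc16a1 and Surf4. Their minimum values were 0.190 to 0.247. The 95th percentile of all genes was 0.181 to 0.242 in single lines, which is not the same measure as a minimum over lines. The spread of that minimum over all genes is not given here. Gm8355, Hspd1-ps3 and Tdgf1-ps1 can share reads with near-identical copies, Tdgf1-ps1 with Tdgf1, so that their counts are uncertain.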

How the data were processed

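The authors sorted single cells, prepared Smart-seq2 libraries, aligned reads to GRCm38.p6 with STAR 2.7.3a and deposited counts of uniquely mapped reads from featureCounts 2.0.0. The authors also deposited sctransform values, a depth-corrected score, used here only as an alternative. Their kit and counting are not stated to use strand. Symbols came from a gene table, and positions and exon lengths from GENCODE M21 (GRCm38). The 10 members, the gene lists and the depth limit were chosen with earlier results of these data known.

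Counts were summed per line over cells with at least 3000000 counts and tested by the quasi-likelihood method of edgeR 4.0.16 after filterByExpr and TMM, with Benjamini-Hochberg adjustment over all genes. Alternatives used DESeq2 1.42.0, limma 3.58.1, other depth limits, thinning to 1000000 counts, other CPM limits and each line left out. The edgeR model was tested on simulated data and recovered 192 of 200 changed genes at a dispersion of 0.05. Lines are the replicates, and AFX6 and AF32 form 1 group although their media differ. The p-values measure the spread between lines only, and within the EpiSC group this spread includes the difference of medium. Intervals of shares and folds (scipy 1.17.1) cover counting error only, since reads without identifiers are not independent molecules. Chromosome ratios used genes of at least 20 CPM outside the lists, capped at 3 times their mean. Named genes were the members, list genes that stood apart and the 10 genes most like Cthrc1 over lines and over cells. The Y-linked genes and single cells were chosen after their values were seen. Zfp42, Lum, Prrx1, Afp, Ttr and Cdx2 were not analysed here. 0 pairs of cells had identical counts.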

Additional observations from a re-analysis of the deposited data

Results flagged for a closer look

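The cells under the limit of 3000000 counts enter the comparisons only where a lower limit is named, and 3 members stood more than 3-fold higher in them than in the kept cells of the same line, with more than 3 counts and at least 1 cell past 5 CPM. Cthrc1 was at 24.0 CPM in 16 AF32 cells, against 0.141 CPM in the 80 kept ones. A total of 3 counts there would be 0.104 CPM. The values of AF32 cells 31 and 79, which held nearly all of it, are given above, and where their Cthrc1 came from was not tested.

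Prickle1 was at 170 CPM in the same 16 AF32 cells, against 43.0 CPM in kept cells, with 5 of them past 5 CPM. AF32 cell 34 was at 1344 CPM, cell 38 at 768 CPM, cell 64 at 490 CPM and cell 13 at 251 CPM, and cells 31 and 79 were at 0 and 0.734 CPM, so the cells high in Prickle1 were not those high in Cthrc1. Vangl2 was at 110 CPM in 6 cells of 5ar2, against 27.8 CPM in kept cells, with 3 cells at 123 to 253 CPM.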

How the results depend on the processing

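No paired analysis was possible because the numbers shared between lines only count the cells of a line and do not pair lines. The count of 0 calls between FS cells and EpiSCs stayed at 0 under 14 of 15 alternatives, each line left out included (0 to 0), and was 1808 with DESeq2. Cthrc1 was 357-fold higher in AFX6 than in AF32, and 72.0-fold with a limit of 2000000 counts, 24.4-fold with 1000000 and 692-fold with 4000000, which leaves out the AF32 cell with 22 of 50 counts. Leaving out 1 line gave log2 fold changes of -0.69 to 7.84 for Cthrc1, -0.43 to 0.016 for Vangl1, -0.58 to 0.19 for Vangl2, -0.33 to 0.82 for Prickle1, -0.011 to 0.91 for Ror2, -0.41 to 0.72 for Fzd2 and -1.84 to 7.86 for Wnt5a, so none of these directions is stable. The highest values of Cthrc1 and Wnt5a rest on an EpiSC group near 0 and are no bounds. Celsr1 (-0.58 to -0.13), Ptk7 (-0.28 to -0.08) and Fzd7 (0.40 to 1.16) kept their direction. Other reversals were Vangl2 with 1000000 counts (0.0019), and Wnt5a with limma (0.083) and without cells of few genes (0.59). Between the FS lines, Ptk7 turned to 1.03 without cells of few genes and Wnt5a to 1.00 with 4000000 counts. The cause was not tested. Counting any cell with 1 read moved 33 of 40 shares beyond their intervals. The counts of members by share, spread and 2-fold difference stayed within 1.5 times under every alternative run.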
